A study of Bos grunniens and Bos grunniens x Bos taurus with 12 samples.

Results

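The genes examined were 8 that take up or release lactate and glucose in the testis, or that escort such transporters to the cell surface. They were 3 monocarboxylate transporters (SLC16A1, SLC16A3 and SLC16A7), 3 glucose transporters (SLC2A1, SLC2A3 and SLC2A8) and 2 chaperones (BSG, or basigin, and EMB, or embigin). A gene was taken when its symbol was 1 of the 8 in the deposited tables of 20965 genes, and 6 of the 8 were found in this way. The rows of BSG (ENSBGRG00000005465) and SLC2A3 (ENSBGRG00000009442) carry no symbol and were taken by the protein name in their description, so they lie outside the letter of that rule. The other members were SLC16A1 (ENSBGRG00000004446), SLC16A3 (ENSBGRG00000005938), SLC16A7 (ENSBGRG00000009741), SLC2A1 (ENSBGRG00000011665), SLC2A8 (ENSBGRG00000004637) and EMB (ENSBGRG00000018287). The genes were chosen by function, with their counts and FPKM in these 12 libraries in view, so the values below describe them and are not independent evidence of a pattern of the group. The tables give no positions for the genes.

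Ribo-seq, in which the stretches of mRNA shielded by ribosomes from a nuclease are read, measured the translation of each gene in whole testis. The groups were male yak (Bos grunniens) of 6 months, which the labels call the juvenile stage, of 18 months (puberty) and of 4 years (sexual maturity), and cattle–yak of 4 years, with 3 animals each. Cattle–yak are hybrids of cattle and yak, here from Jersey bulls and Gannan yak cows, whose males are sterile. No group received a treatment. The labels give castration as the source of all testes, whereas the methods of the study give euthanasia for the yaks of 4 years and castration for the cattle–yak. Footprints of the hybrid were aligned to the yak genome like those of yak, and any effect of cattle alleles on the counts was not tested. Replicate numbers name different animals, each with 1 library, so the spread between replicates holds differences between animals and between library preparations alike.

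Lactate leaves and enters cells together with a proton through monocarboxylate transporters. Sertoli cells, the nurse cells of the seminiferous tubule, take up glucose and release lactate, which spermatocytes and spermatids use as fuel. SLC16A1 (MCT1) carries lactate in most tissues, SLC16A3 (MCT4) serves lactate export from glycolytic cells, and SLC16A7 (MCT2) has a high affinity for pyruvate and lactate. These proteins reach the plasma membrane only with a single-pass partner of the immunoglobulin superfamily. BSG is the usual partner of SLC16A1 and SLC16A3, and EMB that of SLC16A7. SLC2A1 (GLUT1) and SLC2A3 (GLUT3) carry glucose across the plasma membrane, and SLC2A8 (GLUT8) is a largely intracellular hexose transporter that is abundant in testis.

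The total count on genes was 25816963 to 37167651 in yak of 6 months, 21309151 to 24542362 in yak of 18 months, 16304058 to 17862516 in yak of 4 years and 38437889 to 52616039 in cattle–yak. Replicates were not equal within sampling error, since chi-square over degrees of freedom was 26.4 to 336 for the pairs of libraries in a group. Markers of Sertoli cells (5 of 9 had a symbol), spermatogonia (7 of 8) and spermatocytes (8 of 8) were read in every group, in keeping with the label of testis. At 6 months HORMAD1 gave almost all of the spermatocyte signal. Markers of spermatids separated the libraries. The summed level of 7 round spermatid markers was 0.34 to 0.87 FPKM at 6 months, 1360 to 1992 FPKM in yak of 4 years and 3.33 to 7.68 FPKM in cattle–yak. FPKM is the number of footprints per length of the gene, scaled to the total of the library, so that levels of different genes can be set side by side. TXNDC8, SUN5 and IZUMO1 were at 0 in all 3 libraries of 6 months. At 18 months the sum was 1.36, 776 and 4.71 FPKM in replicates 1, 2 and 3, so that replicate 2 stood apart from the other libraries of its group. The sum of 4 elongating spermatid markers gave the same split, with 1.84, 6717 and 13.2 FPKM at 18 months, 0.96 to 1.21 FPKM at 6 months, 8274 to 11324 FPKM in yak of 4 years and 1.13 to 26.5 FPKM in cattle–yak. Fold changes of the members in the 18-month comparisons without replicate 2 are therefore given beside those with it.

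**Figure D1:**
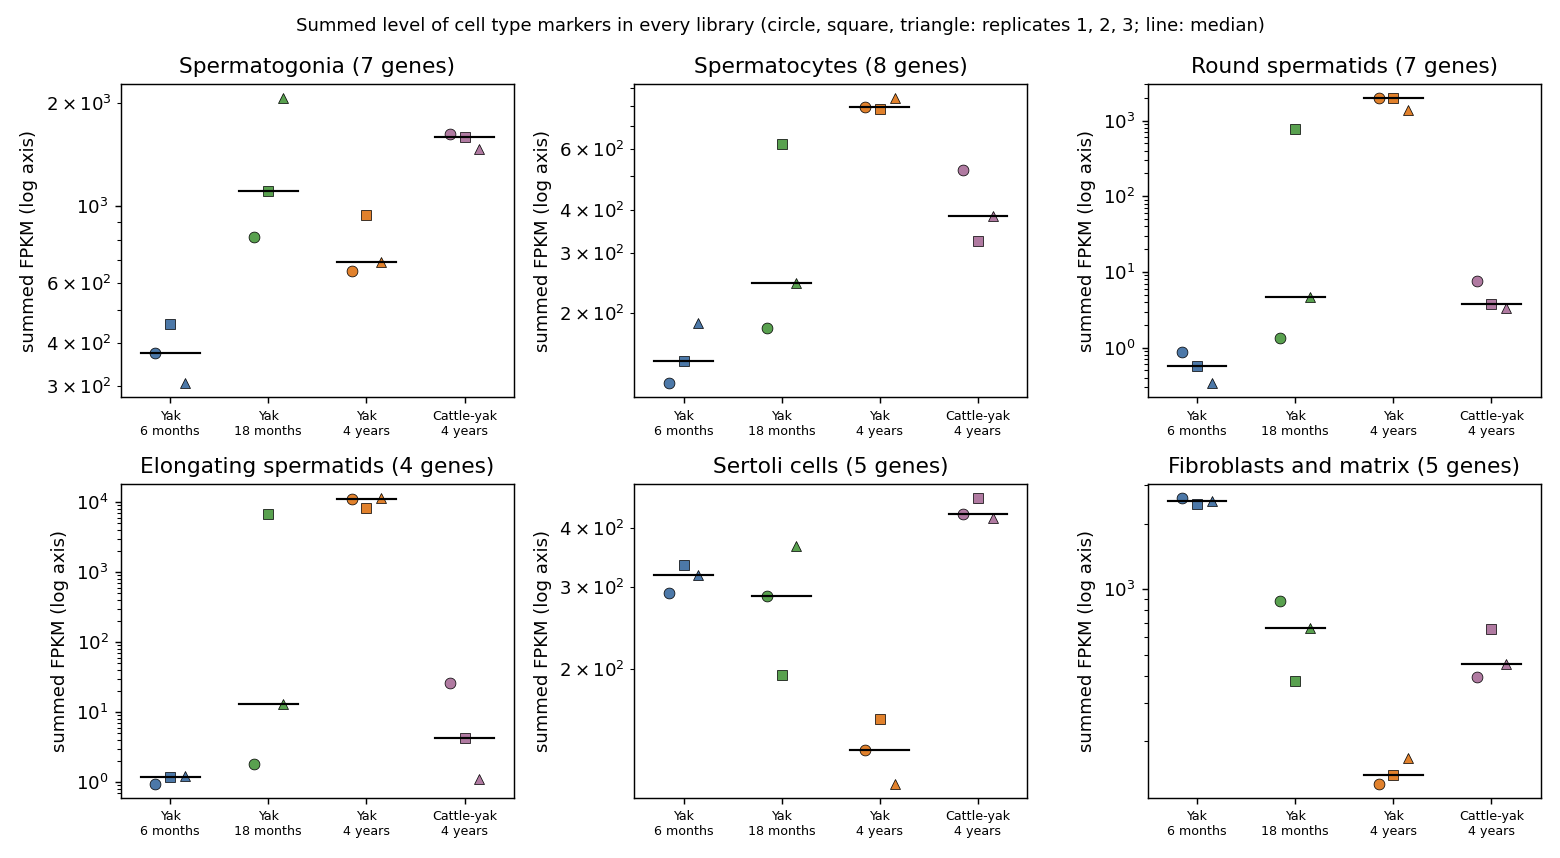
Summed FPKM of marker genes of 6 testicular cell types (vertical log axes) in each of the 12 libraries by group, with circle, square and triangle for replicates 1, 2 and 3 and a line at the median of the group. Round spermatid markers summed to 776 FPKM in replicate 2 of the 18-month yaks, against 1.36 and 4.71 FPKM in the other libraries of that group.

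Differentially translated genes (DTGs) had an adjusted p below 0.05 in edgeR's quasi-likelihood test and at least a 2-fold difference, that is 1 on the log2 scale, up or down. From 6 months to 4 years, SLC2A3, SLC2A8 and EMB rose and SLC2A1 and BSG fell, so that 5 of the 8 members were DTGs, where 55.7% of the 16133 genes tested were DTGs (31.0% higher and 24.7% lower). Between cattle–yak and yak of 4 years, EMB was higher and SLC2A3 and SLC2A8 were lower in the hybrid, which made 3 of 8 members DTGs beside 44.0% of 16498 genes (17.1% higher and 27.0% lower). From 6 to 18 months EMB was the 1 DTG among the 8, where 0.0672% of 14874 genes were DTGs (0.0202% higher and 0.0471% lower). From 18 months to 4 years none of 7 members tested was a DTG in edgeR's test, where 0.0371% of 16175 genes were DTGs. There, 2 of the 7, BSG and EMB, had an unadjusted p below 0.05. The share of all genes with such a p was not counted, so no excess among the members is shown. DESeq2 called 0 of the members, where it called 19.8% of 16420 genes. Without replicate 2 of the 18-month yaks, SLC2A3, SLC2A8 and BSG were DTGs in edgeR's test, that is 3 of 7 members beside 44.6% of 16377 genes. Without that library, 76 of 15071 genes were DTGs at 18 months against 6 months, and EMB was again the member among them (log2 fold change 3.84, edgeR adjusted p = 0.00199). The median log2 fold change of the members was -0.42 at 18 months against 6 months, -0.03 at 4 years against 18 months, -0.30 at 4 years against 6 months and -0.08 in cattle–yak against yak of 4 years. Over all genes tested the median was 0.05, 0.01, 0.08 and 0.00 in the same order. FPKM carries no TMM scaling, so a rise from 6 months looks larger in FPKM than in the log2 fold change, and a fall looks smaller. The libraries of the groups did not overlap in FPKM for 3 of 8 members at 18 months against 6 months, beside 37.8% of genes tested, and for 3 of 7 at 4 years against 18 months, beside 54.5%. They did not overlap for 5 of 8 at 4 years against 6 months, beside 76.4%, and for 3 of 8 in cattle–yak against yak of 4 years, beside 71.1%. The comparisons share libraries, and each of the 3 yak groups enters more than 1 of them.

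**Figure D2:**
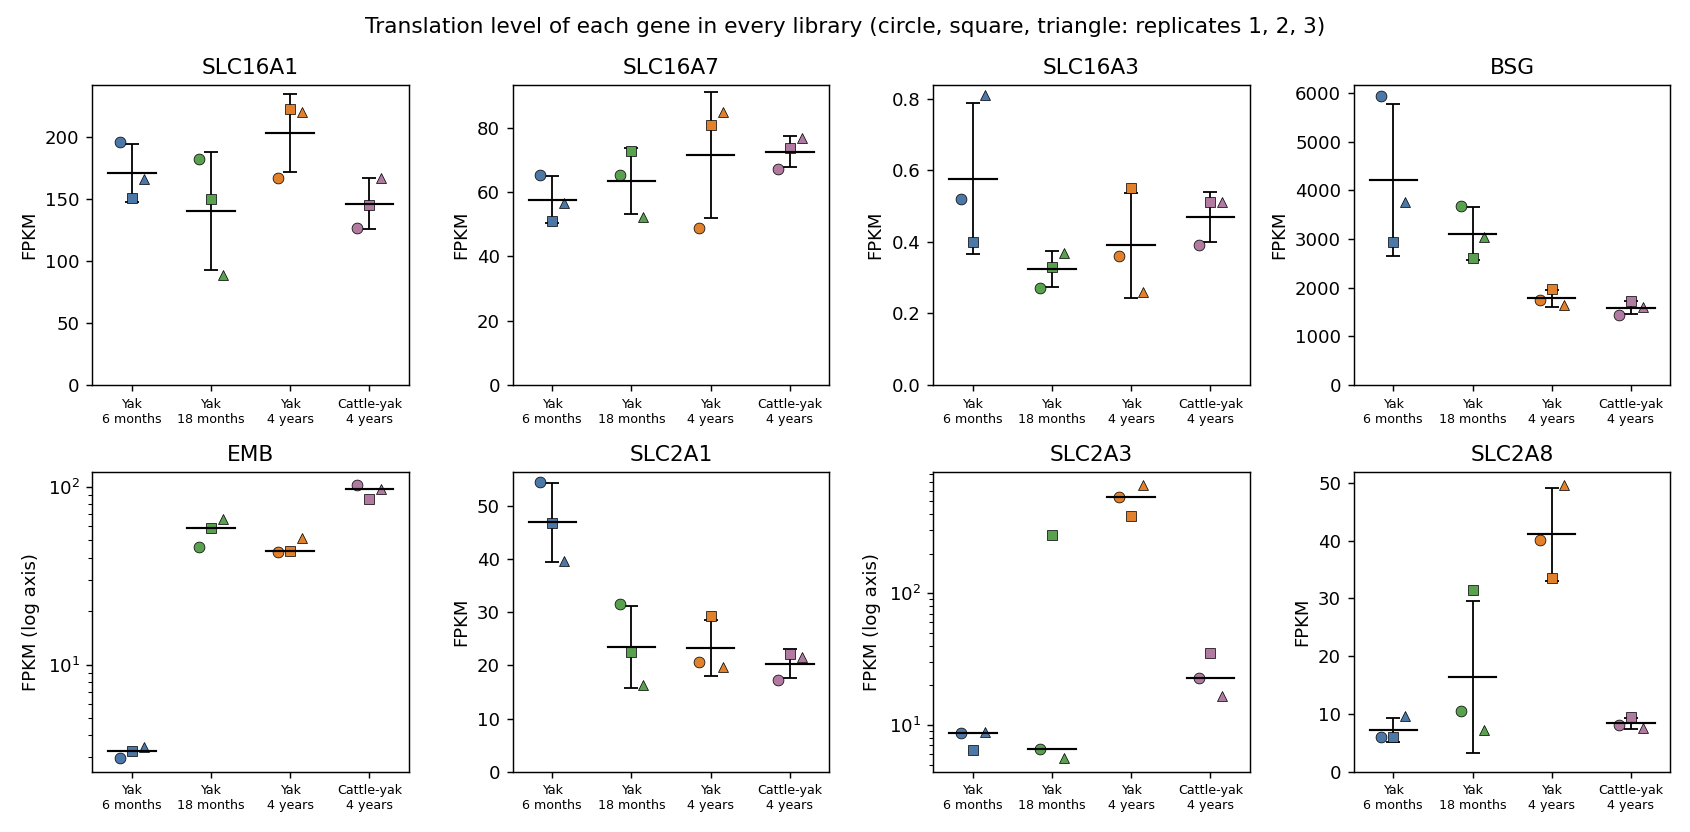
FPKM of each of the 8 genes (vertical axes) in each of the 12 libraries by group, as points. Bars and lines give the mean ± SD (n = 3) on linear axes, and EMB and SLC2A3 are drawn on log axes with a line at the median and no SD. SLC2A3 and SLC2A8 are highest in yak of 4 years, EMB is lowest at 6 months, and SLC16A1 and SLC16A7 overlap between neighbouring groups.

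SLC16A1 was the most translated of the 3 monocarboxylate transporters in every group. Its level was 196, 151 and 166 FPKM in the libraries of 6 months, 183, 150.3 and 88.5 FPKM at 18 months, 167, 223 and 220.1 FPKM in yak of 4 years and 126, 145 and 168 FPKM in cattle–yak. From low to high mean the order was 18 months, cattle–yak, 6 months and 4 years, and each neighbouring pair of groups overlapped. The difference of cattle–yak from yak of 4 years was a log2 fold change of -0.45 (SE 0.148, n = 3 and 3, edgeR adjusted p = 0.0256), which is below the fold that defines a DTG. The 95% interval of this difference was -0.79 to -0.11, and with a library left out the adjusted p was 0.0270 to 0.139. From 6 months to 4 years the log2 fold change was -0.33 (95% interval -0.78 to 0.12, edgeR adjusted p = 0.165) after TMM scaling but 0.26 with scaling by library size and 0.24 with limma on FPKM, so its direction depended on the scaling. Without replicate 2 of the 18-month yaks the log2 fold change was -0.60 from 6 to 18 months and 0.32 from 18 months to 4 years, against -0.62 and 0.31 with it. In ranks of mean FPKM, SLC16A1 stood at 804 of 18245 translated genes at 6 months, 1122 of 19090 at 18 months, 831 of 19115 in yak of 4 years and 1307 of 18918 in cattle–yak.

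SLC16A7, like SLC16A1, was a DTG in none of the 4 comparisons. It was read at 65.3, 50.9 and 56.5 FPKM at 6 months, 65.2, 72.7 and 52.3 FPKM at 18 months, 48.9, 80.9 and 84.7 FPKM in yak of 4 years and 67.2, 73.8 and 76.7 FPKM in cattle–yak. All neighbouring groups overlapped. Its log2 fold change in cattle–yak against yak of 4 years was 0.036, with a 95% interval of -0.40 to 0.47 (edgeR adjusted p = 0.879). From 6 months to 4 years it was -0.28 (95% interval -0.80 to 0.24, edgeR adjusted p = 0.293), and the sign turned with scaling by library size (0.31) and with limma on FPKM (0.27). From 6 to 18 months it was -0.22, and -0.27 without replicate 2, and from 18 months to 4 years it was -0.03 and 0.034. Intervals of this width do not show that the levels were equal.

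SLC16A3, the export form, was close to the lower limit of the data. It had 19 to 35 counts per library at 6 months, 9 to 13 at 18 months, 6 to 14 in yak of 4 years and 28 or 29 in cattle–yak, and its level was at most 0.81 FPKM in any of the 12 libraries. Groups at 6 months (0.40 to 0.81 FPKM) and 18 months (0.27 to 0.37 FPKM) did not overlap, where FPKM of 37.8% of the genes tested did not overlap. The log2 fold change was -1.17 (SE 0.505, edgeR adjusted p = 0.200) at 18 months against 6 months, -1.14 there without replicate 2 of the 18-month yaks, and -1.11 (SE 0.514, edgeR adjusted p = 0.0789) at 4 years against 6 months. Its counts were too low to be tested between 18 months and 4 years.

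BSG was translated far above every transporter it escorts. Its level was 5940, 2936 and 3758 FPKM at 6 months, 3682, 2609 and 3036 FPKM at 18 months, 1746, 1979 and 1635 FPKM in yak of 4 years and 1447, 1724 and 1604 FPKM in cattle–yak. It ranked 20 of the genes at 6 months, 25 at 18 months, 45 in yak of 4 years and 65 in cattle–yak, counted from the highest mean FPKM. Neither the juvenile nor the 18-month libraries overlapped those of 4 years. From 6 months to 4 years BSG fell by 1.80 on the log2 scale (SE 0.344, edgeR adjusted p = 0.00131). From 18 months to 4 years the log2 fold change was -0.99 (SE 0.328, edgeR adjusted p = 0.105), and -1.14 (edgeR adjusted p = 0.0126) without replicate 2 of the 18-month yaks. From 6 to 18 months it was -0.80 (SE 0.468, edgeR adjusted p = 0.309), or -0.63 without replicate 2, and the libraries overlapped.

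In cattle–yak BSG did not differ from yak of 4 years by more than the spread between replicates. The log2 fold change was 0.07 (95% interval -0.23 to 0.37, edgeR adjusted p = 0.656) from counts, and -0.17 with limma on FPKM. The 2 scales differ for BSG because the effective length behind its FPKM was 848 to 884 bases in yak of 4 years and 1018 to 1022 bases in cattle–yak. The fall of BSG with age ran beside falls in markers of several somatic cell types. In the comparison of 4 years with 6 months, 4 of 5 Sertoli cell markers, 2 of 2 Leydig cell markers, 5 of 6 endothelial markers and 5 of 5 fibroblast and matrix markers were lower DTGs. Peritubular myoid cell markers were divided, with 2 of 5 lower DTGs and log2 fold changes of 0.73 for ACTA2 and 0.94 for MYH11, which were not DTGs. Of 5 macrophage markers, AIF1 (2.05) and CD14 (1.19) were higher and CSF1R (-1.69) was a lower DTG. Sertoli cell markers summed to 291 to 334 FPKM at 6 months, 194 to 366 FPKM at 18 months, 114 to 157 FPKM in yak of 4 years and 421 to 464 FPKM in cattle–yak, and none was at 0 in any library. In cattle–yak 3 of 5 Sertoli cell markers were higher DTGs, while BSG was not. In footprints of whole testis, fewer cells of a type, less RNA per cell and fewer ribosomes per RNA cannot be told apart. The part of the cell types in these values was not tested.

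EMB, the partner of SLC16A7, was far lower at 6 months than in the other groups. It was read at 2.97, 3.25 and 3.42 FPKM at 6 months (83 to 127 counts), 45.7, 58.6 and 66.3 FPKM at 18 months, 43.1, 43.4 and 51.3 FPKM in yak of 4 years and 102, 85.9 and 97.1 FPKM in cattle–yak. Every library of 6 months was below every other library, every library of cattle–yak was above every yak library, and the groups of 18 months and 4 years overlapped. EMB rose by 3.81 on the log2 scale (SE 0.205, edgeR adjusted p = 0.00397) from 6 to 18 months, a 14.1-fold change. Unlike the spermatid markers, EMB in replicate 2 of the 18-month yaks lay between the other replicates, and the log2 fold change stayed within 3.72 to 3.85 with any library left out. The edgeR adjusted p rose to 0.134, 0.135 and 0.0938 when replicate 1, 2 or 3 of the 6-month yaks was left out. The call was thus lost without each of them while the size was not. In those fits 0 of 15444, 0 of 15449 and 1 of 15445 genes were DTGs, so the loss was not particular to EMB.

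From 6 months to 4 years EMB rose by 3.29 on the log2 scale (SE 0.162, edgeR adjusted p = 3.20e-07). Between 18 months and 4 years its log2 fold change was -0.49 (95% interval -0.91 to -0.07, edgeR adjusted p = 0.113), and -0.50 (edgeR adjusted p = 0.0464) without replicate 2 of the 18-month yaks. In cattle–yak against yak of 4 years EMB rose by 1.03 (SE 0.125, edgeR adjusted p = 1.58e-04), a 2.04-fold difference just above the fold threshold. With RLE scaling the value was 0.99 and without replicate 1 of the cattle–yak 0.96, both below that threshold, with adjusted p of 2.01e-04 and 3.98e-04. Markers of early germ cells and of somatic cells moved beside EMB in part. The 7 spermatogonial markers summed to 306 to 453 FPKM at 6 months, 816 to 2070 FPKM at 18 months, 647 to 941 FPKM in yak of 4 years and 1471 to 1626 FPKM in cattle–yak, and none was at 0 in any library. The 8 spermatocyte markers summed to 125 to 188, 181 to 621, 782 to 844 and 324 to 520 FPKM in the same order. At 6 months HORMAD1 made up most of the sum, with a mean of 148 FPKM. No other spermatocyte marker had a mean above 2.11 FPKM at that age, and MEIOB was at 0 in at least 1 library. Peritubular myoid cell markers summed to 141 to 242, 408 to 1266, 211 to 219 and 780 to 1291 FPKM, with none at 0 in any library. In cattle–yak against yak of 4 years, 4 of 7 spermatogonial markers were higher and 3 of 8 spermatocyte markers lower DTGs. There, 5 of 5 peritubular myoid, 2 of 2 Leydig cell, 4 of 5 fibroblast and matrix and 3 of 5 Sertoli cell markers were also higher DTGs. The part of these cell types in the level of EMB was not tested.

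The chaperones were related to their transporters by the ratio of their FPKM within each library, which no scaling between libraries can change. BSG exceeded SLC16A1 in every library, by 19.4 to 30.2 times at 6 months, 17.4 to 34.3 times at 18 months, 7.43 to 10.4 times in yak of 4 years and 9.57 to 11.9 times in cattle–yak. It exceeded SLC16A7 by 57.6 to 90.9, 35.9 to 58.0, 19.3 to 35.7 and 20.9 to 23.3 times in the same order. The log2 ratio of BSG to SLC16A1 was 4.57 ± 0.325 (SD, n = 3) at 6 months, 4.52 ± 0.517 at 18 months, 3.14 ± 0.245 in yak of 4 years and 3.45 ± 0.166 in cattle–yak. In FPKM the libraries of 4 years thus lay below those of both younger ages for both transporters. In FPKM neither ratio separated cattle–yak from yak of 4 years, with exact permutation p of 0.2 for SLC16A1 and 0.6 for SLC16A7. From counts, which leave out the effective lengths given above, BSG had 4.50 to 6.10 times the counts of SLC16A1 in yak of 4 years and 6.67 to 8.18 times in cattle–yak. These libraries did not overlap (log2 difference 0.52, exact permutation p = 0.1), whereas for SLC16A7 they did. From counts, the ratio of BSG to SLC16A7 also overlapped between 18 months (20.04 to 34.3 times) and 4 years (11.5 to 20.5 times).

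From 6 months to 4 years the ratio of EMB ran the other way. From 18 months to 4 years its mean log2 ratio changed by -0.88 to SLC16A1 and -0.44 to SLC16A7, with libraries that overlapped. EMB was 0.015 to 0.021 times SLC16A1 at 6 months, 0.25 to 0.75 times at 18 months, 0.194 to 0.258 times in yak of 4 years and 0.580 to 0.807 times in cattle–yak. Set against its own usual client SLC16A7, EMB was 0.045 to 0.064 times as high at 6 months, 0.701 to 1.27 times at 18 months, 0.537 to 0.883 times in yak of 4 years and 1.16 to 1.52 times in cattle–yak. The log2 ratio of EMB to SLC16A7 was -4.16 ± 0.263 (SD, n = 3) at 6 months, -0.16 ± 0.447 at 18 months, -0.60 ± 0.375 in yak of 4 years and 0.39 ± 0.197 in cattle–yak. EMB was therefore above SLC16A7 in all 3 libraries of cattle–yak and below it in all libraries of 6 months and 4 years. The groups did not overlap between 6 and 18 months, between 6 months and 4 years, or between cattle–yak and yak of 4 years. Since 3 against 3 libraries cannot give a two-sided exact permutation p below 0.1, none of the 16 ratio comparisons could pass 0.05. The smallest value, 0.1, was reached in 10 of them (0.16 after Benjamini-Hochberg adjustment over the 16).

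**Figure D3:**
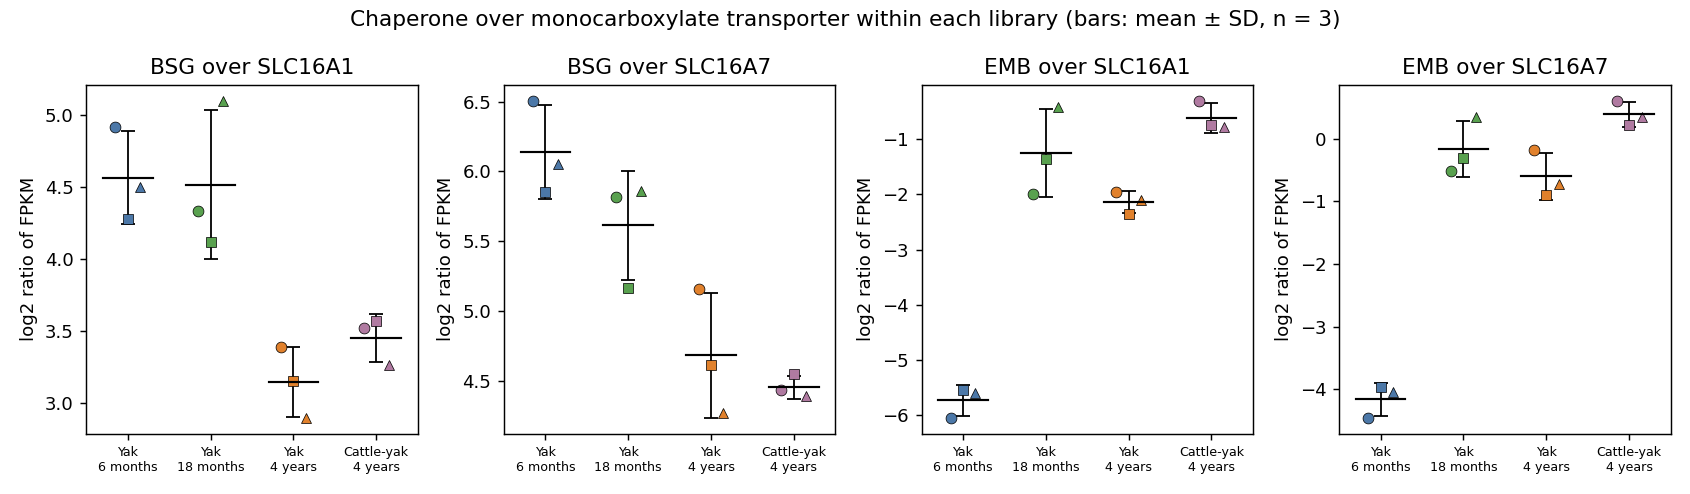
Log2 ratio of FPKM of each chaperone to each of SLC16A1 and SLC16A7 (vertical axes) in each of the 12 libraries by group, with a point for each library and bars for the mean ± SD (n = 3). BSG exceeds both transporters in all libraries, and the ratio of EMB to SLC16A7 is above 0 in the 3 cattle–yak libraries and near -4.16 at 6 months.

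SLC2A1, the glucose transporter of many somatic cells, was highest at 6 months. Its level was 54.4, 46.6 and 39.6 FPKM at 6 months, 31.5, 22.4 and 16.3 FPKM at 18 months, 20.6, 29.3 and 19.7 FPKM in yak of 4 years and 17.3, 22.2 and 21.6 FPKM in cattle–yak. All libraries of 6 months lay above all others, and the remaining 3 groups overlapped. Over the whole age range, from 6 months to 4 years, SLC2A1 fell by 1.58 on the log2 scale (SE 0.226, edgeR adjusted p = 2.23e-04). With scaling by library size and with limma on FPKM the log2 fold change was -0.99, with adjusted p of 0.00193 and 0.00182, which is just short of the fold threshold. From 6 to 18 months the log2 fold change was -1.33 (SE 0.356, edgeR adjusted p = 0.0945). SLC2A1 was a DTG there with DESeq2 (adjusted p = 0.00858), in an edgeR fit of all 12 libraries (0.0205) and without replicate 1 of the 18-month yaks (edgeR adjusted p = 0.0176). These settings called 12.1%, 15.7% and 16.8% of all genes tested, in the same order, where the main fit called 0.0672%. Without replicate 2 the log2 fold change of SLC2A1 was -1.25 (edgeR adjusted p = 0.149). From 18 months to 4 years it was -0.22, and -0.30 without replicate 2. In cattle–yak against yak of 4 years it was -0.19 (95% interval -0.62 to 0.24, edgeR adjusted p = 0.403). The libraries of SLC2A1 overlapped between these groups, whereas the sums of Sertoli cell markers given above did not. Of those markers 3 of 5 were higher DTGs in cattle–yak. Endothelial markers summed to 138 to 267 FPKM at 6 months and 85.3 to 242 FPKM at 18 months. Their sums were 20.35 to 26.1 FPKM in yak of 4 years and 23.7 to 35.2 FPKM in cattle–yak, which overlapped. Of 6 endothelial markers, 5 were lower DTGs with age and 1 was a lower DTG in cattle–yak. The part of each cell type in the level of SLC2A1 was not tested.

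SLC2A3 had the widest range of the 8 members. It was read at 8.67, 6.43 and 8.92 FPKM at 6 months, 6.55, 278 and 5.60 FPKM at 18 months, 540.3, 388 and 659 FPKM in yak of 4 years and 22.9, 35.2 and 16.7 FPKM in cattle–yak. Replicate 2 of the 18-month yaks was the library with spermatid markers, and its level of SLC2A3 was 49.6 times that of the lowest replicate of its age. Between 6 months and 4 years SLC2A3 rose by 5.24 on the log2 scale (SE 0.290, edgeR adjusted p = 6.49e-07). In cattle–yak it was lower than in yak of 4 years, with a log2 fold change of -4.18 (SE 0.330, edgeR adjusted p = 1.43e-05), an 18.2-fold difference. All libraries of cattle–yak were nevertheless above all those of 6 months, a comparison that was not tested. From 6 to 18 months the log2 fold change was 2.93 (SE 1.36, edgeR adjusted p = 0.224), and without replicate 2 it was -0.70 (edgeR adjusted p = 0.239). From 18 months to 4 years it was 2.38 (SE 1.42, edgeR adjusted p = 0.248), and without replicate 2 it was 5.98 (edgeR adjusted p = 2.88e-05).

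SLC2A8 was also highest in yak of 4 years, over a smaller range. Its level was 5.93, 6.10 and 9.57 FPKM at 6 months, 10.5, 31.4 and 7.24 FPKM at 18 months, 40.1, 33.5 and 49.6 FPKM in yak of 4 years and 8.15, 9.46 and 7.58 FPKM in cattle–yak. All libraries of yak of 4 years were above all others, and replicate 2 was again the highest of the 18-month libraries. SLC2A8 rose by 1.95 on the log2 scale (SE 0.226, edgeR adjusted p = 6.07e-05) from 6 months to 4 years. In cattle–yak it was lower than in yak of 4 years by a log2 fold change of -2.30 (SE 0.173, edgeR adjusted p = 1.11e-05), a 4.91-fold difference. From 18 months to 4 years the log2 fold change was 1.19 (SE 0.532, edgeR adjusted p = 0.161), and without replicate 2 it was 1.98 (edgeR adjusted p = 0.00178). From 6 to 18 months it was 0.81 (SE 0.537, edgeR adjusted p = 0.358), and without replicate 2 it was 0.018 (edgeR adjusted p = 0.982).

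Spermatid markers, and in part spermatocyte markers, moved with both of these transporters. At 4 years against 6 months 7 of 7 round and 4 of 4 elongating spermatid markers were higher DTGs, and in cattle–yak against yak of 4 years all of them were lower DTGs. Of 8 spermatocyte markers, 7 were higher DTGs with age and 3 were lower DTGs in cattle–yak. They summed to 782 to 844 FPKM in yak of 4 years and 324 to 520 FPKM in cattle–yak. At 18 months their sum was 181, 621 and 246 FPKM in replicates 1, 2 and 3. Macrophage markers also summed highest in yak of 4 years, at 234 to 267 FPKM. The other groups had 54.7 to 158 FPKM. Of 5 macrophage markers, 2 were higher and 1 was a lower DTG with age, and 2 were lower DTGs in cattle–yak. AIF1 made up most of the sum at 4 years, with a mean of 194 FPKM. CD163 and CD14 also had their highest mean at 4 years. CSF1R and CD68 were instead higher at 6 months (28.8 and 9.87 FPKM) than at 4 years (13.35 and 8.79 FPKM). The part of each cell type in the levels of SLC2A3 and SLC2A8 was not tested. Erythrocytes also carry glucose transporters. Of 8 markers listed for them 3 had a symbol (HBM, ALAS2 and SLC4A1), and these summed to at most 0.06 FPKM in any library. The others, HBA and HBB among them, were not read, so the presence of erythrocytes was not tested.

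**Figure D4:**
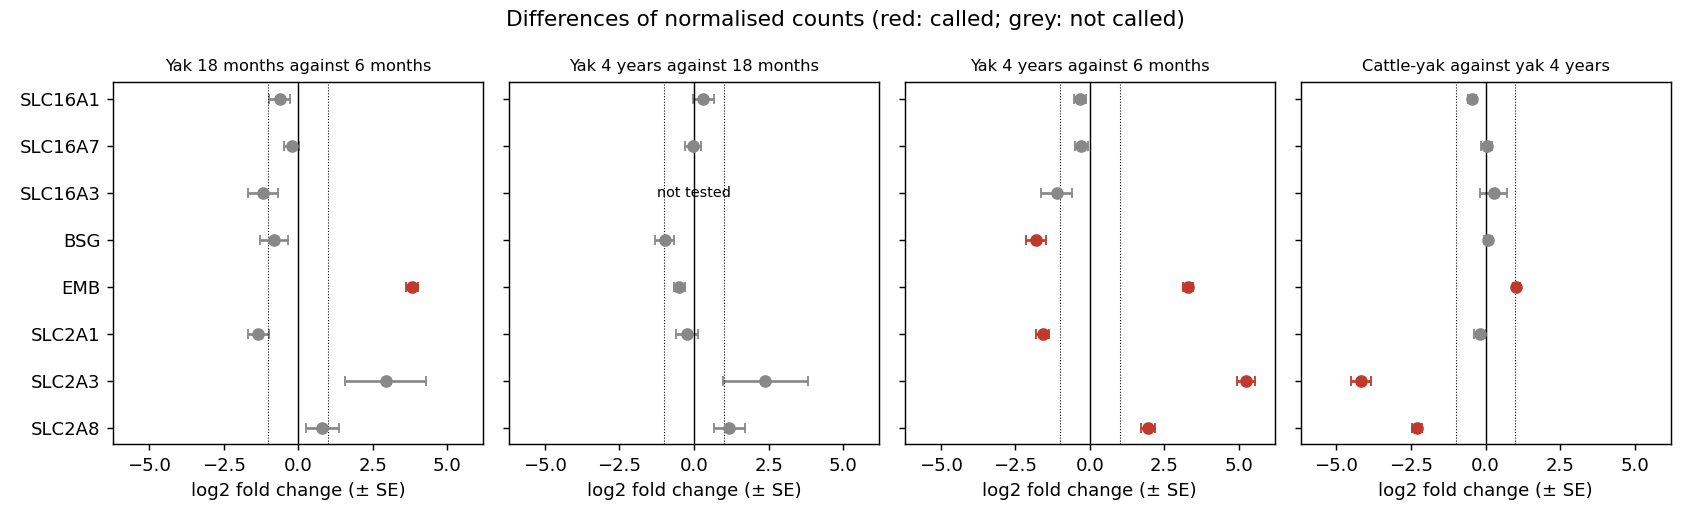
Log2 fold change of each of the 8 genes (horizontal axes) in the 4 comparisons, from edgeR after TMM scaling, with bars for ± SE, red points for DTGs, grey points for other genes and dotted lines at the fold threshold of 1. EMB is the 1 DTG from 6 to 18 months, and SLC2A3 has the largest changes with age (5.24) and in cattle–yak (-4.18).

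Other transporters of monocarboxylates were translated at lower levels than SLC16A1 and SLC16A7. Of 13 genes listed, 12 had a symbol and 9 were tested at 4 years against 6 months, where 5 rose and 2 fell, with a median log2 fold change of 1.33 beside 0.08 over all genes. SLC16A11, a pyruvate transporter of the family, rose by 6.59 on the log2 scale from at most 0.06 FPKM per library to 5.97 ± 0.272 FPKM (SD, n = 3). SLC16A8, known from the retina, was a higher DTG but reached only 0.517 ± 0.040 FPKM (13 or 14 counts per library), against 0 or 1 count per library at 6 months. SLC16A13 rose by 4.06, from 0.477 ± 0.184 to 11.8 ± 4.02 FPKM. The genes that fell were SLC16A10, a carrier of aromatic amino acids that went from 17.0 ± 1.29 to 3.53 ± 0.522 FPKM, and SLC5A8, a sodium-coupled carrier that went from 19.7 ± 2.34 to 5.23 ± 1.51 FPKM. SLC16A14, the highest of the list over all libraries, had a log2 fold change of -0.02 (edgeR adjusted p = 0.940). In cattle–yak against yak of 4 years 0 of 9 were higher and 2 were lower, namely SLC16A13 (log2 fold change -3.18) and SLC16A6 (-2.35). SLC16A11 was not among them, at 4.86 ± 3.22 FPKM in cattle–yak (edgeR adjusted p = 0.553).

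Other hexose transporters went both ways with age. Of 15 listed genes 13 had a symbol, and of 10 tested at 4 years against 6 months 5 rose and 4 fell, with a median log2 fold change of 0.90. SLC2A5, the fructose transporter, rose by 6.99 on the log2 scale, from 0.243 ± 0.110 to 46.5 ± 1.68 FPKM. At 18 months it was 0.66, 23.7 and 1.59 FPKM in replicates 1, 2 and 3, so the library with spermatid markers was again the high one. SLC5A1, the sodium-coupled glucose carrier of the intestine, was a higher DTG that reached only 0.453 ± 0.061 FPKM. SLC2A10 fell by 4.61, SLC2A9, which carries urate, fell by 2.51, and SLC5A11, which carries inositol, fell by 1.60. In cattle–yak against yak of 4 years, 11 were tested, 1 was higher and 1 was lower. SLC2A5 was lower by a log2 fold change of -5.56, at 0.953 ± 0.563 FPKM, and SLC2A9 was higher by 1.40, at 7.74 ± 1.18 FPKM. The median over the 11 was 0.04.

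Genes that use lactate, pyruvate or glucose inside the cell were listed as 15, of which 10 had a symbol and 9 were tested at 4 years against 6 months. In that comparison 3 rose and 1 fell, with a median log2 fold change of 0.17. PDHA2, the testis form of the pyruvate dehydrogenase alpha subunit, was a higher DTG, at 0.017 ± 0.029 FPKM and 164 ± 40.7 FPKM, and its somatic counterpart PDHA1 fell by 2.08, from 69.7 ± 18.9 to 24.1 ± 2.58 FPKM. HK2, a hexokinase, rose by 1.82. PDHB and HK1 did not reach the fold threshold, with log2 fold changes of 0.78 and -0.85. In cattle–yak against yak of 4 years, 4 of 9 were higher and 2 were lower, with a median of 0.58. PDHA2 was lower by a log2 fold change of -7.40, at 0.933 ± 0.612 FPKM, and PDHA1 was higher by 2.58, at 142 ± 14.3 FPKM. HK2 was also higher, by 2.45, at 102 ± 19.5 FPKM in cattle–yak. HK3 was lower by -3.56, at 0.090 ± 0.052 FPKM.

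Partners and regulators of the transporters were listed as 7 genes, of which 6 had a symbol and were tested. With age 1 rose and 2 fell (median log2 fold change -0.41), and in cattle–yak 2 were higher and 1 was lower (median 0.25). TXNIP and ARRDC4, arrestin-like proteins that promote removal of glucose transporters from the cell surface, moved in opposite directions. TXNIP fell by 1.48 with age and was higher by 1.67 in cattle–yak, where it reached 217 ± 48.5 FPKM. ARRDC4 rose by 2.07 with age and was lower by -2.57 in cattle–yak, at 18.7 ± 1.25 FPKM against 112 ± 3.79 FPKM in yak of 4 years. CAV1, a component of caveolae, fell by 1.62 with age and was higher by 1.29 in cattle–yak. NPTN, the third protein of the basigin and embigin family, was read at 120 ± 19.7, 109 ± 25.1, 149 ± 24.5 and 113 ± 6.55 FPKM at 6 months, 18 months, 4 years and in cattle–yak, and STOM, a membrane protein that binds SLC2A1, had a log2 fold change of 0.28 with age and -0.33 in cattle–yak. None of the 4 lists held a DTG at 18 months against 6 months or at 4 years against 18 months in edgeR's test. At 18 months against 6 months edgeR's unadjusted p was below 0.05 for 2 other monocarboxylate transporters and 4 other hexose transporters. It was also below 0.05 for 1 gene of lactate and pyruvate use and for 0 partners. DESeq2 called 2, 1, 1 and 0 genes of these lists, where it called 12.1% of all genes. At 4 years against 18 months these were 5, 4, 3 and 3 genes by unadjusted p. DESeq2 called 4, 4, 2 and 2 there, where it called 19.8% of all genes. The share of all genes with an unadjusted p below 0.05 was not counted. DESeq2 gave the same counts as edgeR in every list at 4 years against 6 months.

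Genes whose profile was most like that of a member were found by the root mean square difference of log2(FPKM + 1), centred on the mean of each gene, over the 12 libraries. SLC16A1 was nearest to NPTN (0.180) and TM9SF2 (0.181), among 10699 genes. SLC16A7 was nearest to KIAA2013 (0.149) and ZHX1 (0.164), and SLC16A3 to MON1A (0.109) and CYHR1 (0.110). For SLC2A1 the nearest were LRPAP1 and NUCB2, both at 0.161, and for BSG they were SREBF2 (0.195) and PCYOX1 (0.201). SLC2A3 was nearest to RFX4 (0.337) and DNAI1 (0.348), and SLC2A8 to TIGD4 (0.173) and ZMYM1 (0.197). EMB was nearest to TKTL1 (0.417), read at 11.6, 158, 129 and 205 FPKM at 6 months, 18 months, 4 years and in cattle–yak, and to ACTL8 (0.418). For scale, the root mean square of the member's own profile was 0.140 for SLC16A3, 0.346 for SLC16A1, 1.74 for EMB and 2.54 for SLC2A3. The 12 libraries are 4 groups of 3 and are not 12 independent points.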

How the data were processed

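Ribo-seq was performed on testes of 12 animals in 4 groups, as the labels give them. Per the study's methods, the authors used fastp for trimming, Bowtie2 against rRNA, BLAST against further small RNAs, STAR for alignment to the yak genome BosGru 3.0 and RSEM for counts in coding regions. The deposited values are expected counts, not normalized and given as whole numbers, and the deposited FPKM of the authors divides them by effective length and library total. The authors' own fold change, p-value and FDR columns and their tables of group means were not used.

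The members and gene lists were chosen with earlier results of these data known. Counts of the 6 libraries of a comparison passed filterByExpr and TMM scaling before the quasi-likelihood test of edgeR 4.0.16 (R 4.3.3), with Benjamini-Hochberg adjustment over all genes tested. The SE of a log2 fold change was approximated from the F statistic (the absolute value divided by its root), and the 95% interval used it with the t quantile at the test's degrees of freedom. All 8 members passed the filter in every comparison, except SLC16A3 at 4 years against 18 months. Ratios were compared by a two-sided exact permutation test (scipy 1.17.1). Ratios to SLC16A3 were left out, since it had 6 to 35 counts per library. Of each list, the 3 genes with the highest mean FPKM and the 3 DTGs with the largest change per comparison were named, and for each member the 2 genes with the most similar profile. Genes beyond this rule were named after their values were seen. Marker lists were spermatogonia, spermatocytes, round and elongating spermatids, Sertoli, Leydig, peritubular myoid and endothelial cells, macrophages, erythrocytes and fibroblasts with matrix. Alternatives were DESeq2 1.42.0, RLE and library size scaling, no filter, all 12 libraries in 1 fit, limma 3.58.1 on log2(FPKM + 1), the replicate number as a block, counts in place of FPKM for ratios, and each library left out. The edgeR script was tested on simulated data.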

Additional observations from a re-analysis of the deposited data

How the results depend on the processing

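Over the members, 367 values under an alternative kept their direction and side of the threshold, 7 fell below it, 8 passed it and 20 changed sign. Every change of sign was in a value that was not a DTG. SLC16A7 became 0.16 and 0.13 at 18 months against 6 months with library size scaling and limma. At 4 years against 18 months it became 0.037 (DESeq2), 0.035 (RLE), 0.17 (library size) and 0.14 (limma), and with a library left out -0.18 to 0.16. At 4 years against 6 months, SLC16A1 became 0.26 and 0.24 and SLC16A7 0.31 and 0.27 with library size scaling and limma. SLC2A1 became 0.0033 and 0.016 with these at 4 years against 18 months, and with a library left out -0.46 to 0.19. In cattle–yak, BSG became -0.17 with limma, and with a library left out SLC16A7 ran from -0.082 to 0.23 and SLC2A1 from -0.25 to 0.083. SLC2A3 at 18 months against 6 months ran from -0.70 to 3.47. The ratio of BSG to SLC16A1 at 18 months against 6 months ran from -0.34 to 0.15, and that of BSG to SLC16A7 in cattle–yak from -0.43 to 0.012, and was 0.0021 from counts. SLC16A3 was a DTG at 4 years against 6 months with all 12 libraries (-1.09, edgeR adjusted p = 0.0478), and DESeq2 gave no adjusted p for SLC2A3 at 18 months against 6 months.

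The number of DTGs was stable at 4 years against 6 months and in cattle–yak, but not in the comparisons with 18 months. At 18 months against 6 months there were 10, but 1879 with DESeq2, 153 with library size scaling, 3 with no filter, 2655 with all 12 libraries, 170 with limma and 0 to 2593 with a library left out, the highest without replicate 1 of 18 months. At 4 years against 18 months there were 6, but 3259 with DESeq2, 3486 with all 12 libraries, 73 with limma and 0 to 7310 with a library left out, the highest without replicate 2 of 18 months. The cause was not tested. Library size scaling moved the median log2 fold change of all genes from 0.08 to 0.64 at 4 years against 6 months, and the share of higher DTGs from 55.7% to 72.6% (73.4% with limma).

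Same-numbered replicates did not deviate together (correlations from -0.112 to 0.071). With the replicate block there were 538, 0, 8726 and 7147 DTGs at 18 months against 6 months, 4 years against 18 months, 4 years against 6 months and in cattle–yak, and SLC2A1 became a DTG in the first (-1.39, edgeR adjusted p = 0.0397). No other member changed its call.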

Other observations

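Lactate dehydrogenase B, which favours the conversion of lactate to pyruvate, had no symbol and was found by its description after its values were seen. Its level (ENSBGRG00000003594) was 556 ± 68.0 FPKM at 6 months, 353 ± 108 at 18 months, 169 ± 19.5 in yak of 4 years and 775 ± 98.5 in cattle–yak (SD, n = 3). It fell by 2.28 on the log2 scale from 6 months to 4 years (SE 0.170, edgeR adjusted p = 3.76e-06) and was higher by 2.21 in cattle–yak (SE 0.158, edgeR adjusted p = 8.72e-06). The row described as mitochondrial pyruvate carrier 1-like protein (ENSBGRG00000019336), looked up in the same way, was at 0.143 ± 0.248 FPKM at 6 months, 5.53 ± 8.31 at 18 months, 34.4 ± 5.15 in yak of 4 years and 0.443 ± 0.30 in cattle–yak.

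A row described as similar to the SLC2A3 protein (ENSBGRG00000021178) reached at most 0.07 FPKM. The effective length behind the FPKM of SLC2A3 was 1280 to 1303 bases in yak of 4 years and 1515 bases at 6 months. This makes its change in FPKM larger than that in normalised counts, as does the lack of TMM scaling in FPKM given above.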
